A study of Mus musculus with 10 samples.

Results

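Nucleotide synthesis and one-carbon metabolism was followed through 35 enzyme genes, chosen by name and sorted into 5 branches: de novo purine, pyrimidine, deoxynucleotide and diphosphate, purine salvage, and serine and folate. A member counted as measured when a probe set of the array carried its symbol and no other, and its brightest probe set, averaged across the 10 arrays, stood for it. By that rule 32 of the 35 were measured, among 22180 genes in all, and Pfas, Impdh2 and Nme2 were not, since no probe set carried their symbol alone. The study profiled mouse regulatory T (Treg) cells, a Foxp3-positive class of CD4 T cells that holds immune responses in check, on 5 wild type (WT) arrays and 5 LKB1-deficient arrays, whose titles name a deletion of Stk11. Stk11 encodes LKB1, the kinase upstream of AMPK, the cell's energy sensor. All samples were sorted, per the labels, from mixed bone marrow chimeras, mice whose blood cells descend from donor marrow of more than a single genotype, and went into lysis without culture. The labels name no agent. The age and strain of the mice, the driver of the deletion and the cells left in the hosts are not stated in the sources used here. By its design the study asks how the loss of LKB1 alters transcript levels in Treg cells, and here it is asked of these enzymes. Values are deposited log2 array signals, given in the order of arrays 1 to 5, and signals of different probe sets are not compared as levels.

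Purines are built on phosphoribosyl pyrophosphate (PRPP), step by step up to inosine monophosphate (IMP), which is then turned into AMP or GMP. Pyrimidines are made as a free ring that is joined to PRPP later. Ribonucleotide reductase converts both kinds into the deoxynucleotides of DNA, salvage enzymes reclaim bases and nucleosides, and the serine and folate enzymes supply the single carbon units that purine rings and thymidylate need. In activated T cells these pathways are known to be raised together with growth, in part downstream of Myc and of mTOR complex 1, which AMPK restrains.

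The transcripts of these enzymes were mostly lower on LKB1-deficient arrays. Of the 32 measured members 6 fell, namely Nme1, Gart, Ppat, Shmt2, Cad and Aprt, 0 rose and 26 did not pass the test (limma, a linear model with variances moderated across genes, adjusted p under 0.05 over all genes). Each of the 5 branches held at least 1 of the 6. Over all 22180 genes, 0.83% fell and 0.234% rose. Unadjusted p-values under 0.05 were reached by 21 members, all with negative differences, against 8.8% of all genes with a negative difference. With a positive difference they were reached by 0 members and by 1151 of all 22180 genes. Differences are LKB1-deficient minus WT log2 signals, and their median over the members was -0.39, where the median over all genes was 0.0034. Negative differences were seen in 29 of the 32, against 49.2% of all genes. All 32 members lay above the array median on every array, whereas the shares over all genes include dim ones. Without the dimmest 40% of genes the median over all genes was -0.041, and 2.13% of genes and 10 members fell. In 14 members every LKB1-deficient array lay below every WT array (3.71% of all genes), and in 0 every LKB1-deficient array lay above every WT array (0.996% of all genes).

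**Figure D1:**
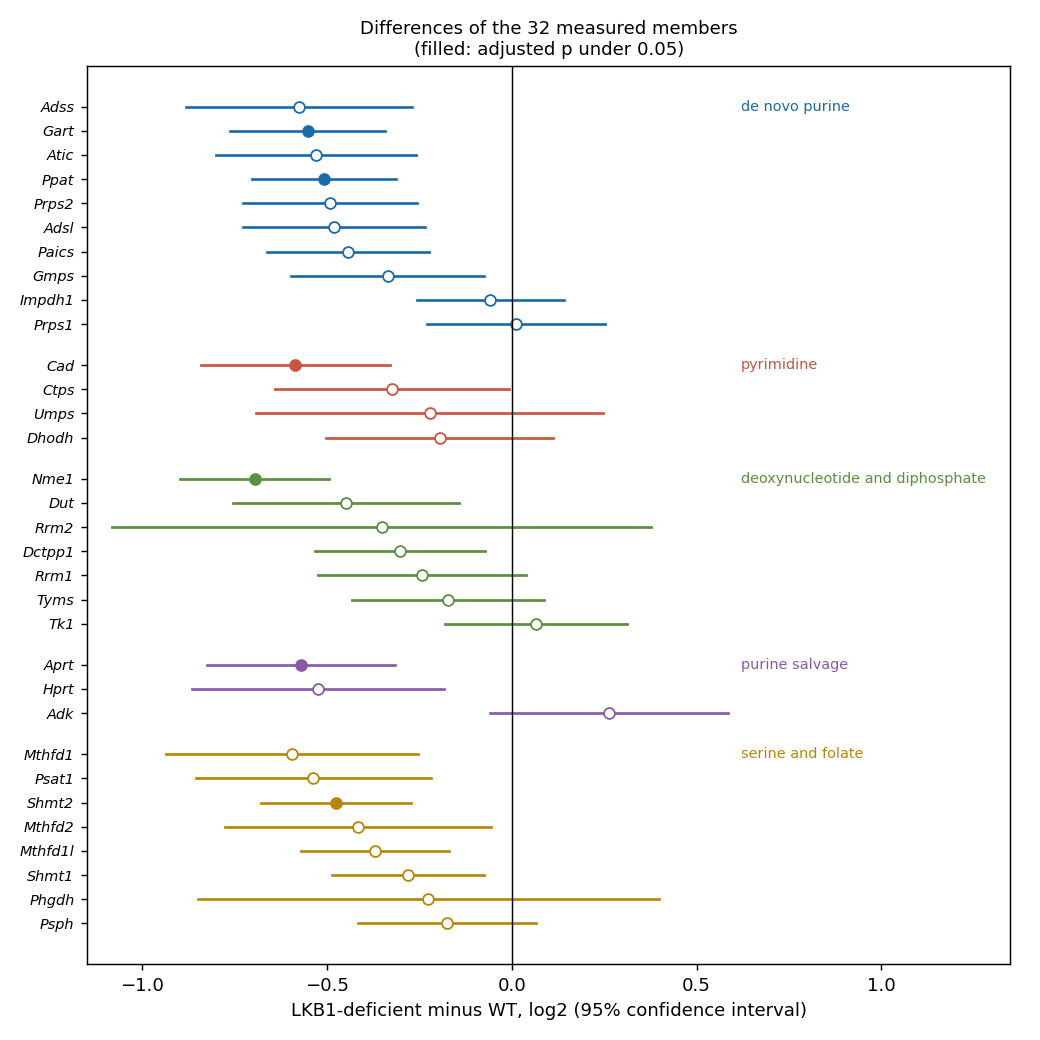
Log2 difference of each of the 32 measured members, LKB1-deficient minus WT (x axis), by branch, with 95% confidence intervals from limma, n = 5 arrays a group. Filled points passed an adjusted p of 0.05 (Nme1, Gart, Ppat, Shmt2, Cad and Aprt), and the positive estimates were those of Prps1, Tk1 and Adk.

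The count of 6 moved with the arrays. It was 1 without WT array 1, 3, 4 or 5 or LKB1-deficient array 4, 2 without WT array 2, 3 without LKB1-deficient array 5, 4 without LKB1-deficient array 3, 5 without LKB1-deficient array 2 and 13 without LKB1-deficient array 1. The count over all genes moved as well, from 184 lower to between 30 and 64 without a WT array. It was 340, 142, 118, 84 and 123 without LKB1-deficient arrays 1, 2, 3, 4 and 5. The median over the members lay between -0.44 and -0.37 in these 10 fits. Nme1 passed in all 10, Gart in 5, Ppat in 4, Shmt2 in 2, and Cad and Aprt in 1 each. The running codes in the sample descriptions split the arrays into replicates 1 to 3 of both groups (set 1) and replicates 4 and 5 (set 2), and the meaning of the codes is not given. Within set 1 and within set 2 limma called 0 members, while 17 had an unadjusted p under 0.05 in each, and the medians were -0.43 and -0.34. Over all 22180 genes it called 0 within set 1, and 46 lower and 423 higher within set 2, with 2247 and 2916 at an unadjusted p under 0.05 in either direction.

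Some LKB1-deficient arrays stood high for markers of other cell types. The mean of 14 monocyte, macrophage and dendritic markers was 9.41 and 9.53 on arrays 4 and 5 of the LKB1-deficient group, where WT arrays had 6.61 to 7.05. Array 1 of that group, at 7.36, was also above the WT range. The mean of 10 B and plasma cell markers was 6.40, 6.01 and 6.22 on arrays 1, 4 and 5, where WT arrays had 4.89 to 5.35. All 14 and all 10 of these markers had positive differences, and 0 of either list passed. The log2 signal of Foxp3 was 11.09 ± 0.09 (SD, n = 5) on WT and 11.03 ± 0.67 (SD, n = 5) on LKB1-deficient arrays, array 1 being at 9.86. Over 7 NK cell markers, of which Klrd1 passed, the mean was 4.51 to 4.63 on WT and 4.67 to 5.71 on LKB1-deficient arrays, with array 1 the highest. The mean of Cd8a, which passed, and Cd8b1 was 6.38 to 6.71 and 6.88 to 7.18, and that of the platelet genes Pf4 and Ppbp 5.63 to 5.94 and 5.66 to 7.82, highest on arrays 4 and 5. The mean of 6 Treg markers was 10.36 to 10.43 on WT arrays and 9.68 on LKB1-deficient array 1, and the other 4 were at 10.35 or above. Over 8 T cell identity genes the median difference was -0.16, with 0 past the threshold. Their mean was 11.09 to 11.12 on WT arrays. It was 10.84, 10.90 and 10.85 on LKB1-deficient arrays 1, 4 and 5, and 11.07 and 11.13 on arrays 2 and 3. Stk11, the deleted gene, was at 6.61, 6.69, 6.75, 6.95 and 6.92 on WT arrays and 6.57, 6.01, 6.05, 6.71 and 6.78 on the arrays labelled LKB1-deficient. Arrays 2 and 3 of the latter were far below the WT range, array 1 was just below it, and arrays 4 and 5 lay within it. The difference of -0.36 did not pass (adjusted p = 0.335), so every direction given here rests on the labels. Whether the Stk11 probe set covers the deleted part is not stated. Without LKB1-deficient arrays 1, 4 and 5, limma called 6 members, all lower, and with the macrophage and B cell means as covariates it called 5, all lower. These 2 fits were added with the data in view. The medians over the members were -0.40 and -0.41 there. Nme1, Ppat and Aprt passed in both, Gart, Cad and Shmt2 passed in neither, Atic and Psat1 were gained in both, and Gmps was gained in the first. All genes called lower were 0.915% and 0.753%. In bulk samples, fewer cells of a type and less RNA per cell cannot be told apart.

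The promoter windows of the members were read for short motifs, in RefSeq sequence of GRCm38.p6 running from 250 bases before to 50 bases after the annotated start, for 33 of the 35 members (Pfas and Dhodh are named only). The E-box CACGTG, which reads the same on both strands and is bound by Myc with Max, was present in 5 of 33, those of Paics, Atic, Impdh2, Tyms and Nme1 (15.2%), against 8.09% of 27025 genes with a window. Among the E2F words TTTCCCGC, TTTCGCGC, TTTGCCGC and TTTGGCGC, searched on both strands, at least 1 was found for Ppat and Prps2 (6.06%, against 2.61% of all genes). The ATF4 composite word TGATGCAA was found for 0 of 33, against 1.03% of all genes. A match is a description of the letters, and binding was not measured. The windows of the measured members with an E-box are shown so that its place before the start can be seen, with CACGTG in capitals. Nme1 has windows for a pair of annotated starts, each with an E-box, beginning 18 and 29 bases before the start. That of Atic begins 7 bases before its start, that of Tyms 61 and that of Paics 203.
Nme1, upstream start (chr11:93968223-93968522, strand minus): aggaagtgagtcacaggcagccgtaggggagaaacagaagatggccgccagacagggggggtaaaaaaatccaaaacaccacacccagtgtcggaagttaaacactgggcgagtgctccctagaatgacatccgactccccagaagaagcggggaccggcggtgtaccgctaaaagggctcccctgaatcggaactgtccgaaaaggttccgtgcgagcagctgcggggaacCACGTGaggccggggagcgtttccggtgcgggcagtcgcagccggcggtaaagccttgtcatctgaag
Nme1, downstream start (chr11:93967976-93968275, strand minus): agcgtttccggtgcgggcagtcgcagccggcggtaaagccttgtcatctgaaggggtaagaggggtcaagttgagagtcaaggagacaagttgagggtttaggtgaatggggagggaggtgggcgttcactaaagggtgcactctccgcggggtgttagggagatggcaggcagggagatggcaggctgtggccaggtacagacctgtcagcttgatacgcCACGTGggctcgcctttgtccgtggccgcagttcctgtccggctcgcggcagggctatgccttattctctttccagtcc
Atic (chr1:71556906-71557205, strand plus): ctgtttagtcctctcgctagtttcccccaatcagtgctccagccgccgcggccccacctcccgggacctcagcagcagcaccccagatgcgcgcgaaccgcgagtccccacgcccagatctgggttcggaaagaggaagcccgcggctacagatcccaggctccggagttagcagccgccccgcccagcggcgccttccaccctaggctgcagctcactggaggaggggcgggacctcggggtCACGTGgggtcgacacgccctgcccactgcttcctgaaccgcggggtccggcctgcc
Tyms (chr5:30073576-30073875, strand minus): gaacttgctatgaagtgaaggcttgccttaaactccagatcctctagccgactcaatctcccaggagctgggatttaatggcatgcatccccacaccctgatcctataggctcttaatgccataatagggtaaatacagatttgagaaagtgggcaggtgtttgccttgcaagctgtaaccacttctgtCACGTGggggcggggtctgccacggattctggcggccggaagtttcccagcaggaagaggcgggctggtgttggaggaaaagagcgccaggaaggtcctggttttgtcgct
Paics (chr5:76951052-76951351, strand plus): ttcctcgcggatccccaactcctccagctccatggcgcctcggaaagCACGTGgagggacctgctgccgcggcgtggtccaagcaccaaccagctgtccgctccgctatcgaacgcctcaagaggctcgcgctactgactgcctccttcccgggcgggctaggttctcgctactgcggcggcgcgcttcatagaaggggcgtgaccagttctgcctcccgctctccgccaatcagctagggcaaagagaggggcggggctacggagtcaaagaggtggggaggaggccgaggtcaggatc
The window of Ppat is shown beside that of Paics, because these neighbouring purine genes start 276 bases apart on opposite strands. Capitals in it mark both E2F words, which lie on the other strand.
Ppat (chr5:76951529-76951828, strand minus): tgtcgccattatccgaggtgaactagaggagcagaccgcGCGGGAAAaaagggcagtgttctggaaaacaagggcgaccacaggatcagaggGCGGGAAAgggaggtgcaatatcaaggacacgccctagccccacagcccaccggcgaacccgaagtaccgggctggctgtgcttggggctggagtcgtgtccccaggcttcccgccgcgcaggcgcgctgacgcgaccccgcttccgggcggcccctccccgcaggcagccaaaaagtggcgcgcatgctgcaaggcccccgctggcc
Of these genes, Nme1 and Ppat fell, and Atic (-0.53, adjusted p = 0.0675), Paics (-0.44, 0.0599) and Tyms (-0.17, 0.566) did not pass.

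In the de novo purine branch Gart and Ppat fell, 0 members rose and the other 8 of 10 did not pass. The branch's median difference was -0.49, and in 7 of the 10 the groups did not overlap. Ppat encodes amidophosphoribosyltransferase, the committed step that takes PRPP into the purine route. Its log2 signals were 8.50, 8.48, 8.47, 8.48 and 8.58 on WT arrays 1 to 5 and 8.24, 7.91, 7.97, 7.87 and 7.98 on LKB1-deficient arrays 1 to 5. All LKB1-deficient arrays lay below all WT arrays, with array 1 the nearest to them. Ppat was 1.42-fold lower (-0.51, standard error (SE) 0.09, limma adjusted p = 0.0235), with -0.44 within set 1 and -0.61 within set 2. Gart encodes a trifunctional enzyme of the early steps that follow. It was at 8.36, 8.08, 8.33, 8.23 and 8.42 on WT arrays and at 7.68, 7.76, 7.76, 7.56 and 7.89 on LKB1-deficient arrays, again without overlap. Gart was 1.47-fold lower (-0.55, SE 0.10, adjusted p = 0.0235), with -0.52 and -0.60 within the sets. It did not pass with the macrophage and B cell covariates (-0.57, adjusted p = 0.0706) or when arrays 1, 4 and 5 of the LKB1-deficient group were left out (-0.52, 0.0647). Its other probe sets differed less, by -0.41 (adjusted p = 0.0893 over all probe sets) and, at a mean signal of 4.34 on WT arrays, by -0.12 (0.774), and the mean of all 3 did not pass for Gart.

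The enzymes that follow in the route had estimates of like size that did not pass. Paics, the bifunctional carboxylase and synthetase, was at 7.59 to 7.82 on WT and 6.97 to 7.41 on LKB1-deficient arrays (-0.44, adjusted p = 0.0599). Adsl, the adenylosuccinate lyase, which acts before IMP and again on the way to AMP, was at 7.57 to 7.86 and 6.92 to 7.49 (-0.48, adjusted p = 0.0687). Atic, which completes IMP, was at 9.20 to 9.47 and 8.48 to 9.16 (-0.53, adjusted p = 0.0675). The groups did not overlap in any of the 3. Without LKB1-deficient array 1, which was the highest of its group for Adsl and Atic, their differences were -0.55 and -0.62 (adjusted p = 0.0208 and 0.0126), and leaving out that array had to enlarge both.

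Beyond IMP the route splits into an AMP arm and a GMP arm, and none of their measured members passed in the main fit. Adss, which commits IMP to AMP, was lower by an estimate of -0.58 with a 95% confidence interval of -0.88 to -0.27 (adjusted p = 0.0793), and its groups did not overlap. With the set as a block Adss passed (adjusted p = 0.0366). It also passed with a trended robust prior, with array quality weights and without LKB1-deficient array 1. Gmps, the last step to GMP, was at -0.34 (interval -0.60 to -0.08, adjusted p = 0.221). LKB1-deficient array 1, at 8.54, lay within the WT range of 8.42 to 8.64 for Gmps, and the other 4 below it. Impdh1, an isoform of the enzyme that commits IMP to GMP, was at 6.93 ± 0.14 (SD, n = 5) on WT and 6.87 ± 0.08 (SD, n = 5) on LKB1-deficient arrays. The interval of its difference, -0.26 to 0.14, leaves room for a change of up to 0.26 in size on the log2 scale.

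PRPP itself is made by Prps1 and Prps2, X-linked genes for near-identical synthetases. Prps1 had a difference of 0.01 (interval -0.23 to 0.25, adjusted p = 0.979), whereas Prps2 was at -0.49 (interval -0.73 to -0.26, adjusted p = 0.053). Prps2 signals were 8.22, 8.36, 8.14, 7.98 and 8.02 on WT arrays, and 7.58, 7.46, 7.91, 7.71 and 7.61 in the LKB1-deficient group, and did not overlap. Prps2 minus Prps1, taken within each array, was -0.71, -0.40, -0.74, -0.66 and -0.71 on WT arrays 1 to 5 and -1.05, -1.66, -0.96, -0.92 and -1.12 on the LKB1-deficient ones. The shift of -0.50 had p = 0.00794 in a two-sided exact permutation test over the 10 arrays, the smallest it can give, and 0.0159 after Benjamini-Hochberg adjustment over 2 such pairs of enzymes for a shared reaction. The pair was tested with the single differences known, so it shows an unequal change of these probe sets and is not independent evidence. Other pairs of enzymes for a shared step were measured and were not tested this way, so the adjustment covers the chosen pairs only.

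**Figure D2:**
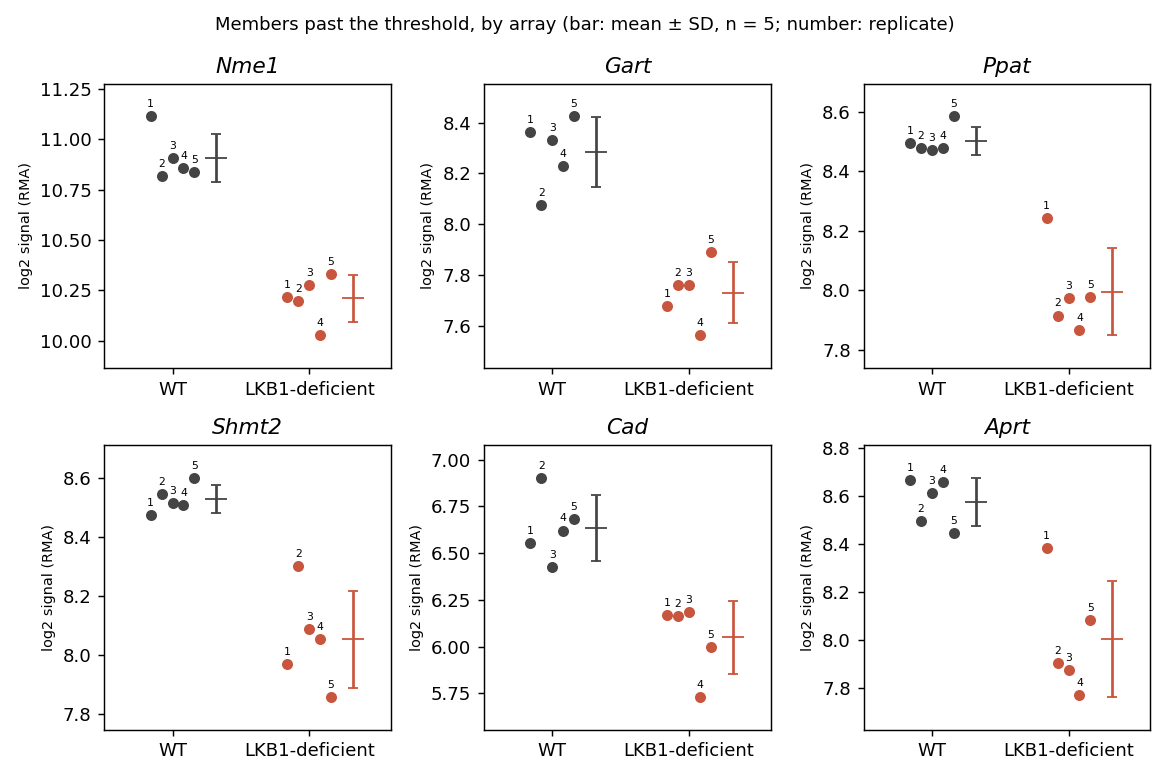
Log2 signal (y axis, a separate range for each gene) of the 6 members that passed the test, on each array (points, numbered by replicate), with the mean and SD of 5 arrays beside them. In all 6 genes every LKB1-deficient array lies below every WT array.

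In the pyrimidine branch Cad fell, 0 members rose and the other 3 of 4 did not pass. The median difference of the branch was -0.27. Cad, the trifunctional enzyme that opens pyrimidine synthesis, was at 6.55, 6.90, 6.42, 6.62 and 6.68 on WT arrays, and 6.17, 6.16, 6.19, 5.73 and 5.996 in the LKB1-deficient group. The groups did not overlap, and LKB1-deficient array 4 was the lowest. Cad was 1.5-fold lower (-0.59, SE 0.12, adjusted p = 0.0398), with -0.45 within set 1 and -0.79 within set 2. With the macrophage and B cell covariates it was at -0.43 (adjusted p = 0.177), and at -0.46 (0.137) when arrays 1, 4 and 5 of the LKB1-deficient group were left out. Ctps, which aminates UTP to CTP, was at 6.09, 6.39, 6.41, 6.27 and 6.44 on WT and 6.38, 5.55, 6.23, 5.97 and 5.86 on LKB1-deficient arrays. Array 1 of the LKB1-deficient group lay inside the WT range for Ctps and array 2 far below it, and the difference of -0.32 did not pass (adjusted p = 0.346).

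The middle of the pyrimidine route varied with the array. Umps, the bifunctional enzyme that yields UMP, was at 6.47 on LKB1-deficient array 1, where the other 4 were at 7.56 to 7.88 and WT arrays at 7.50 to 7.76. Its difference of -0.22 (adjusted p = 0.703) became 0.02 without that array. Dhodh, the mitochondrial dehydrogenase of the fourth step, was at -0.20 (interval -0.50 to 0.11, adjusted p = 0.592). Dhodh was low on LKB1-deficient arrays 1, 4 and 5 (6.001, 5.95 and 6.12), the 3 that stood high for markers of other cell types, and at 6.57 and 6.58 on arrays 2 and 3, where WT arrays had 6.24 to 6.57. The Dhodh difference was 0.14 with the macrophage and B cell covariates and 0.13 without those 3 arrays.

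**Figure D3:**
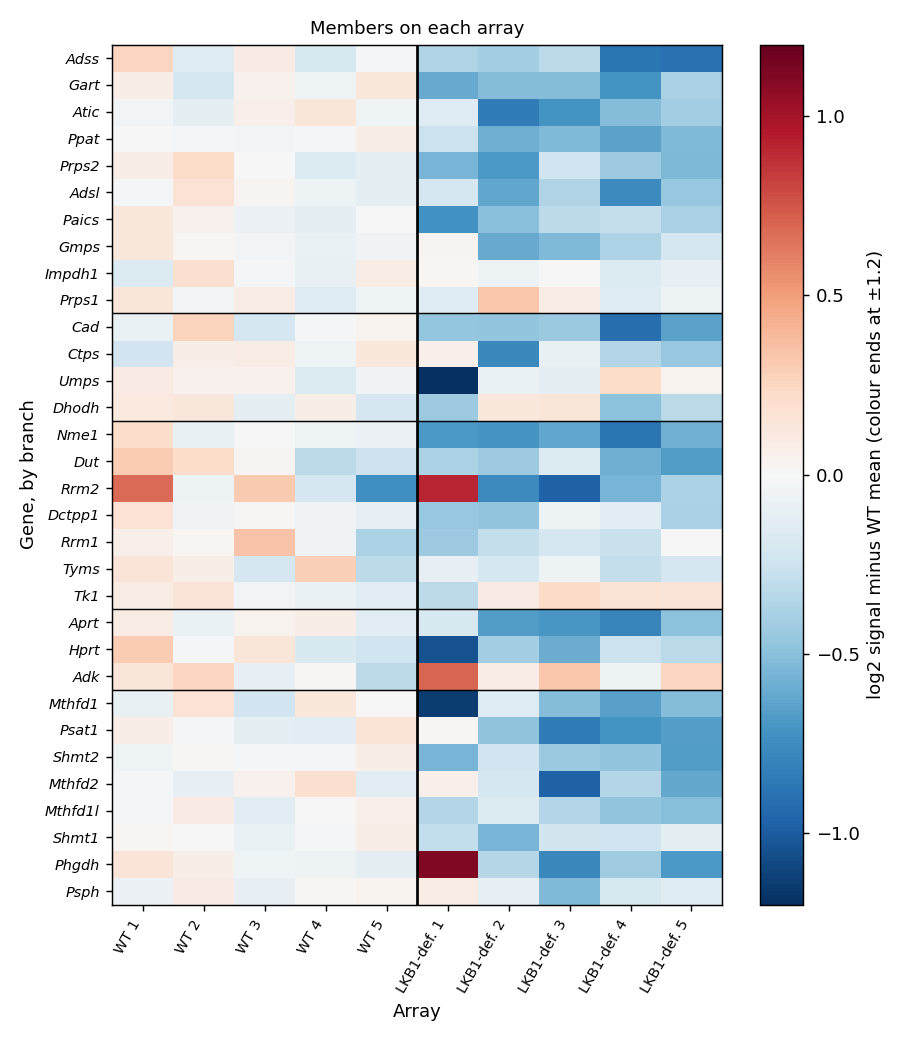
Log2 signal of the 32 measured members minus their WT mean (colour) on the 10 arrays (columns), with genes (rows) grouped by branch. Most rows are blue on all LKB1-deficient arrays, while Umps, Phgdh, Rrm2 and Adk have their extreme value on LKB1-deficient array 1 or 3.

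In the deoxynucleotide and diphosphate branch Nme1 fell, 0 members rose and the other 6 of 7 did not pass. The median difference of the branch was -0.30. Nme1 encodes a nucleoside diphosphate kinase, which makes triphosphates of all bases from their diphosphates. Its log2 signals were 11.11, 10.82, 10.91, 10.86 and 10.84 on WT arrays, and 10.22, 10.20, 10.28, 10.03 and 10.33 in the LKB1-deficient group. The highest LKB1-deficient array, 10.33, lay well below the lowest WT array, 10.82, and the spread within each group was narrow. Nme1 was 1.62-fold lower (-0.70, SE 0.09, adjusted p = 0.00893), and it ranked 14 by p among all 22180 genes. Within set 1 it was at -0.71 and within set 2 at -0.67. With the covariates it was at -0.69 (adjusted p = 0.0289), and at -0.67 (0.0211) when arrays 1, 4 and 5 of the LKB1-deficient group were left out. Nme1 and Nme2 are adjacent genes with closely similar coding sequence, and whether Nme2 transcripts bind the Nme1 probes was not tested.

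The enzymes that make and guard deoxynucleotides proper showed smaller or more scattered values. Dut, which hydrolyses dUTP, was at 9.08, 8.998, 8.81, 8.45 and 8.53 on WT and 8.39, 8.34, 8.61, 8.19 and 8.11 on LKB1-deficient arrays. Within each set the LKB1-deficient arrays lay below the WT arrays, but across the sets the groups overlapped, and the difference of -0.45 did not pass (adjusted p = 0.165). With the set as a block Dut passed (adjusted p = 0.0492). Its other probe set, at a mean signal of 4.11 on WT arrays, differed by -0.19 (adjusted p = 0.617 over all probe sets). Dctpp1, which removes modified dCTP, was at -0.30 (adjusted p = 0.214). Rrm1 and Rrm2, the large and small subunits of ribonucleotide reductase, were at -0.24 (interval -0.52 to 0.04) and -0.35 (interval -1.08 to 0.38). Tyms, thymidylate synthase, was at -0.17 (interval -0.43 to 0.09) and Tk1, the cytosolic thymidine kinase, at 0.07 (interval -0.18 to 0.31), and none of these 4 passed.

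Rrm2 is switched on in S phase, and its groups overlapped widely. Its dimmer probe set, at a mean signal of 5.63 on WT arrays, differed by -0.09 (adjusted p = 0.927 over all probe sets). The brighter probe set was at 7.62, 6.89, 7.27, 6.74 and 6.22 on WT arrays and at 7.86, 6.19, 5.98, 6.39 and 6.56 on LKB1-deficient arrays. Its highest and lowest values were both in the LKB1-deficient group. The mean of 19 cell division genes on the same arrays was 5.70, 5.56, 5.59, 5.39 and 5.15 for WT and 5.67, 5.23, 5.16, 5.38 and 5.40 for LKB1-deficient. Within the LKB1-deficient group array 1 was the highest and arrays 2 and 3 were the lowest in both measures. In that list 0 of 19 genes passed, with a median difference of -0.12. Among 25 DNA replication genes Mcm6 fell (-0.53, adjusted p = 0.0303) and 0 rose. The other 24 did not pass, and the list's median was -0.15, with 8 genes at an unadjusted p under 0.05, all negative. The mean of the DNA replication list was 6.57 to 6.71 on WT arrays and 6.41 to 6.52 on LKB1-deficient arrays, without overlap.

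In purine salvage 1 of 3 members fell, 0 rose and 2 did not pass. Aprt, which joins adenine to PRPP, was at 8.66, 8.50, 8.61, 8.66 and 8.44 on WT and 8.38, 7.90, 7.88, 7.77 and 8.08 on LKB1-deficient arrays. The groups did not overlap, although LKB1-deficient array 1 came close to the lowest WT array. Aprt was 1.49-fold lower (-0.57, SE 0.12, adjusted p = 0.0423), with -0.54 and -0.62 within the sets. Hprt, which does the same for hypoxanthine and guanine, was at 9.19, 8.87, 9.04, 8.71 and 8.65 on WT and 7.85, 8.48, 8.30, 8.63 and 8.57 on LKB1-deficient arrays. All LKB1-deficient arrays were below the WT range, array 1 by most, and the difference of -0.52 (adjusted p = 0.144) was -0.82 within set 1 and -0.08 within set 2. Adk, adenosine kinase, had the highest positive estimate of the 32, 0.26 (interval -0.06 to 0.58, adjusted p = 0.471), with 7.73 on LKB1-deficient array 1 against 6.71 to 7.29 on WT arrays.

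In the serine and folate branch Shmt2 fell, 0 members rose and the other 7 of 8 did not pass. All 8 estimates were negative, and their median was -0.39. Shmt2, the mitochondrial serine hydroxymethyltransferase, which splits serine into glycine and a folate-bound carbon, was at 8.48, 8.55, 8.52, 8.51 and 8.60 on WT arrays. On LKB1-deficient arrays it was at 7.97, 8.30, 8.09, 8.05 and 7.86, all below the narrow WT range. Shmt2 was 1.39-fold lower (-0.48, SE 0.09, adjusted p = 0.0368), with -0.39 and -0.60 within the sets. With the covariates it was at -0.33 (adjusted p = 0.214), and at -0.34 (0.172) when arrays 1, 4 and 5 of the LKB1-deficient group were left out. Shmt1, its cytosolic counterpart, was at -0.28 (interval -0.49 to -0.07, adjusted p = 0.193), without overlap. Shmt2 minus Shmt1 shifted by -0.19 between the groups (two-sided exact permutation p = 0.27, also 0.27 after adjustment over the 2 pairs).

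The folate enzymes that carry the carbon on to formate and purines had negative estimates in both compartments. Mthfd1l, the mitochondrial formate synthetase, was at 7.13, 7.25, 7.01, 7.16 and 7.22 on WT and 6.80, 6.99, 6.80, 6.68 and 6.64 on LKB1-deficient arrays. The groups did not overlap, and the difference of -0.37 did not pass (adjusted p = 0.0817). Mthfd2, the mitochondrial dehydrogenase and cyclohydrolase, was at -0.42 (interval -0.78 to -0.06, adjusted p = 0.274), from 5.70 on LKB1-deficient array 3 to 6.73 on array 1, which was inside the WT range of 6.55 to 6.86. Mthfd1, the cytosolic trifunctional enzyme, was at -0.60 (interval -0.94 to -0.25, adjusted p = 0.0986). It was lowest on LKB1-deficient array 1, at 5.77, and array 2 at 6.75 overlapped the WT arrays (6.67 to 7.08).

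Serine synthesis from glycolysis set LKB1-deficient array 1 apart. Phgdh, its first enzyme, was at 7.67, 7.58, 7.47, 7.46 and 7.39 on WT arrays, and 8.62, 7.17, 6.74, 7.08 and 6.83 in the LKB1-deficient group. Array 1 was the highest of all 10, while the other 4 lay below every WT array. The difference was -0.23 (interval -0.85 to 0.40, adjusted p = 0.783) with all arrays and -0.56 (adjusted p = 0.0243) without array 1, which had to enlarge it. Psat1, the second enzyme, was at 6.77 on LKB1-deficient array 1, inside the WT range of 6.63 to 6.92, and at 5.92 to 6.27 on the other 4, below it (-0.54, adjusted p = 0.11, and -0.68 and 0.00683 without array 1). Psph, the last step, was at -0.18 (interval -0.42 to 0.07, adjusted p = 0.526).

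**Figure D4:**
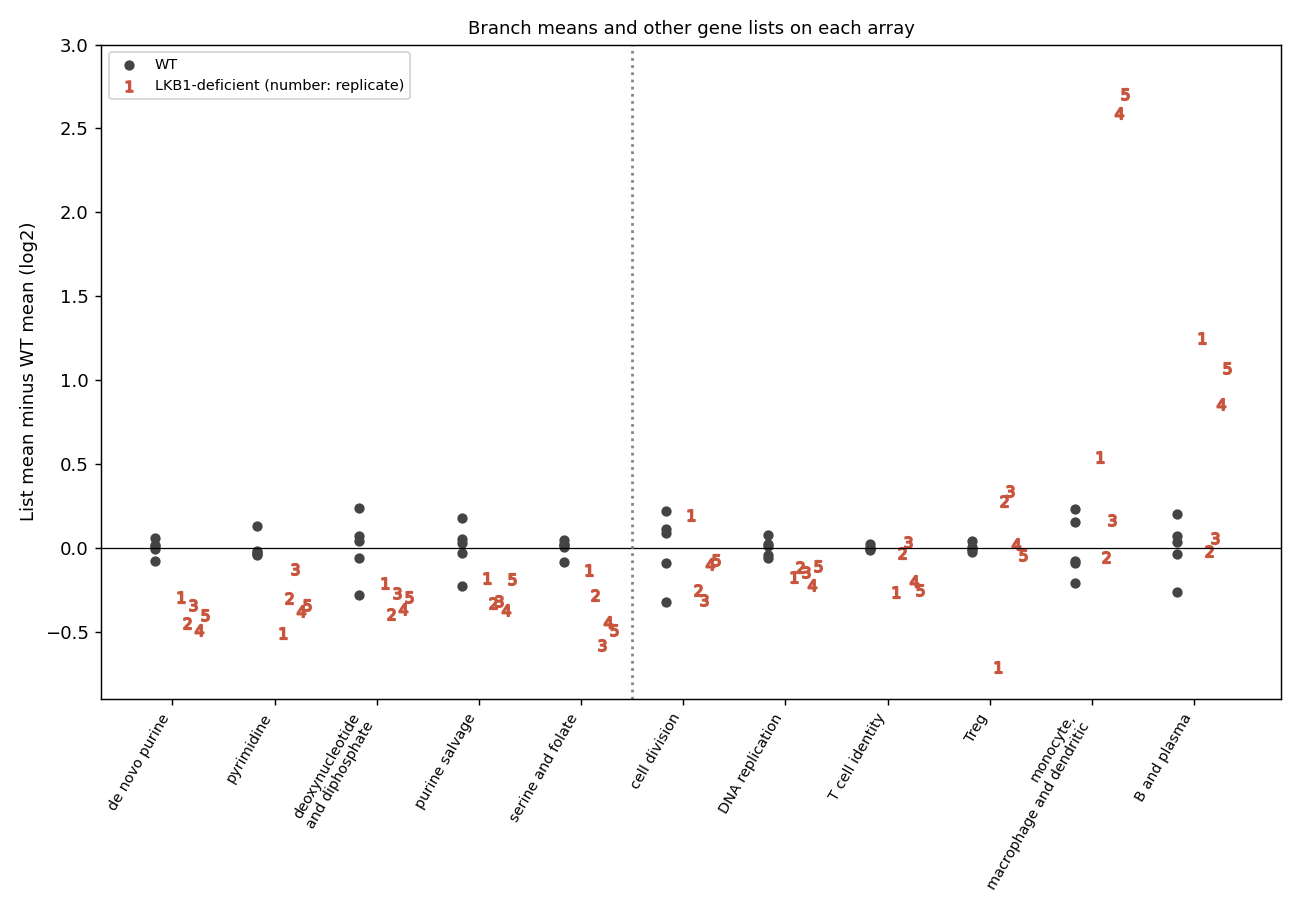
Mean log2 signal of each branch and of other gene lists, minus its WT mean (y axis), on every array, with WT as points and LKB1-deficient arrays as replicate numbers. The 5 LKB1-deficient arrays lie below all WT arrays for the de novo purine, pyrimidine, serine and folate, and DNA replication means. LKB1-deficient arrays 4 and 5 stand high for the macrophage list, where array 1 also lies above the WT arrays. Arrays 1, 4 and 5 stand high for the B cell list.

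The mean level of each branch was also read on every array. The mean log2 signal of the 10 purine genes was 8.24 to 8.38 on WT and 7.83 to 8.03 on LKB1-deficient arrays. That of the 8 serine and folate genes was 7.01 to 7.13 and 6.51 to 6.96, and that of the 4 pyrimidine genes 6.72 to 6.89 and 6.25 to 6.64, without overlap in any of the 3, as for the DNA replication list. In the deoxynucleotide and diphosphate branch (7.79 to 8.31 and 7.68 to 7.87) and in salvage (7.94 to 8.34 and 7.79 to 7.99) the means overlapped. Whether the branches differ from each other in their change was not tested. Over all members, each LKB1-deficient array had 21 to 25 of the 32 below the lowest WT array and 1 to 3 above the highest. These counts were not made over all genes, so no share can be set beside them. The SD was larger in the LKB1-deficient group for 26 of 32 members (81.2%) and for 68.8% of all genes.

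Other genes of these pathways were followed in further lists. Of 17 other measured genes listed under the folate and methionine cycles 1 fell, Izumo1r (-0.70, adjusted p = 0.0209), 0 rose and 16 did not pass. The median difference of the 17 was -0.18. Izumo1r was listed for its older name, folate receptor 4, and encodes a surface protein, not an enzyme of these cycles. Slc19a1, the reduced folate carrier (-0.30, adjusted p = 0.202), and Amt, of the glycine cleavage system (0.36, 0.135), were among the 16 that did not pass. Over all 22180 genes, 3103 were at an unadjusted p under 0.05 in either direction. Of 15 nucleotide kinases and other synthesis genes 0 passed, with a median of -0.08. In that list 4 were at an unadjusted p under 0.05, 3 negative and 1 positive, among them Guk1, guanylate kinase (-0.28, adjusted p = 0.231), and Nme4 (0.39, 0.26). Of 13 further salvage and transport genes 0 passed, with a median of -0.04 and 2 at an unadjusted p under 0.05, Slc29a1, an equilibrative nucleoside transporter (-0.38, adjusted p = 0.173), and Dguok, deoxyguanosine kinase (-0.30, 0.334). Of 18 breakdown and pool cleaning genes 0 passed, with a median of -0.10 and 4 at an unadjusted p under 0.05. The list holds Ampd2, AMP deaminase (-0.25, adjusted p = 0.339), and Gda, guanine deaminase (0.64, 0.259).

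Among 13 regulators known for these pathways 1 fell and 0 rose. The other 12 did not pass, and the list's median was -0.04. Myc, a transcription factor that drives many nucleotide enzymes, was at 9.60, 9.68, 9.57, 9.61 and 9.47 on WT and 8.21, 9.08, 9.14, 8.92 and 8.75 on LKB1-deficient arrays. The groups did not overlap, array 1 being the lowest, and the difference was -0.76 (SE 0.15, adjusted p = 0.0398). Atf4, which drives serine and folate genes when amino acids are short, had a difference of -0.02 (interval -0.19 to 0.14, adjusted p = 0.926). Its target Asns was at -0.04 (interval -0.25 to 0.18). Mean Asns signals were 4.56 on WT and 4.53 on LKB1-deficient arrays, where the array medians were 4.83 to 4.94. So low a signal may be background, and the activity of ATF4 was not measured. E2f2 (-0.44, adjusted p = 0.152) and Trib3 (0.32, 0.246) did not pass.

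**Figure D5:**
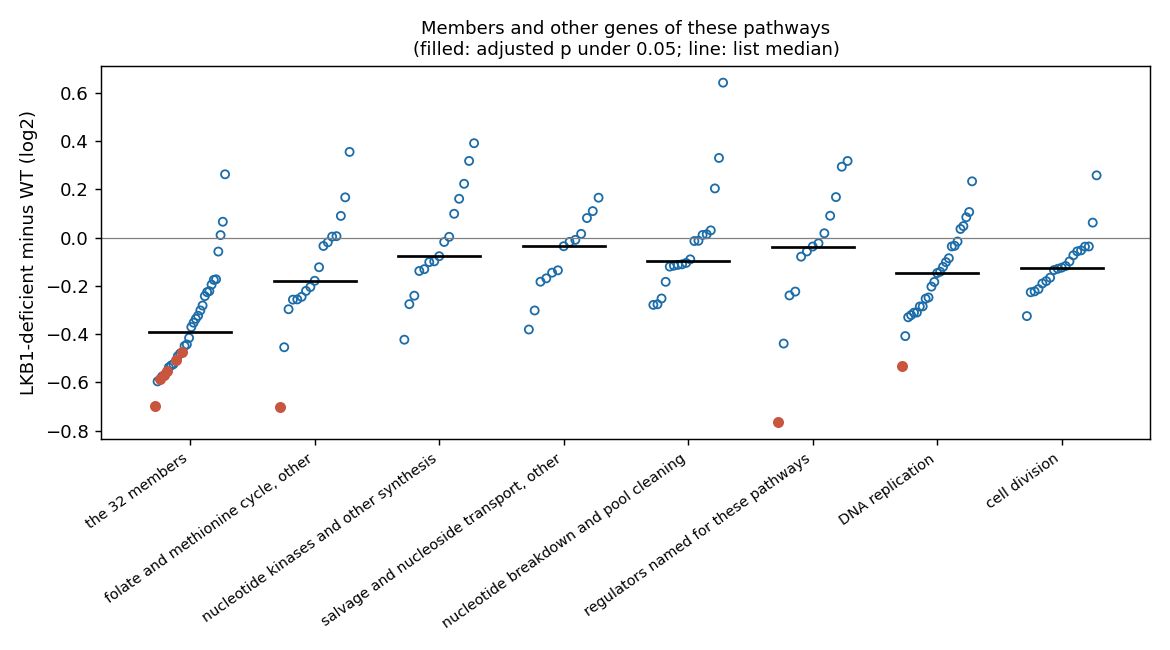
Log2 difference of each gene, LKB1-deficient minus WT (y axis), in the 32 members and in 7 further lists (x axis), with filled points at an adjusted p under 0.05 and a line at the median. The members have the lowest median, -0.39, and the other lists have medians between -0.18 and -0.04.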

How the data were processed

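RNA of 10 samples of sorted mouse Treg cells was hybridised to 1 single-colour array each. Per the labels' protocols it was amplified and biotin-labelled with NuGEN kits from a few nanograms. The deposited log2 values were made with RMA and Partek 6.6, per the submitters' processing notes, with order and settings not given in the sources used here. Quantile normalization hides a shift shared by all transcripts, and with no detection calls low values cannot be told from background. Number of arrays limits precision.

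Of 41345 probe sets, 23521 carried 1 gene symbol in the platform annotation, 1814 several and 16010 none. The highest-mean probe set stood for each of 22180 genes, with no filter. Groups and replicate numbers came from titles. limma 3.58.1 (R 4.3.3; lmFit, eBayes, no covariate) compared LKB1-deficient with WT arrays, adjusted by Benjamini-Hochberg over all genes, and differences are called changes at an adjusted p under 0.05. The code was tested on simulated data. The labels do not say whether arrays came from separate animals, so the spread behind the p-values may be technical.

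Members, lists, motifs and tests were chosen with earlier results of these data known. All 35 members are accounted for. Values on every array are given for members past the threshold and for the 2 smallest p of each branch, and for Prps2, Rrm2, Phgdh and Myc, chosen after their values were seen. Of other lists, called genes and up to 3 with the smallest p could be named, and Asns and Atf4 were added. The alternatives were the mean of all probe sets, removal of the dimmest 40% of genes, array medians subtracted, a trended robust prior, a second quantile normalization, array quality weights, the replicate number or the set as a block, each set alone, each array left out and an adjusted p under 0.1. Promoter sequences are from RefSeq, GRCm38.p6. Protein sequences were not used here.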

Additional observations from a re-analysis of the deposited data

Results flagged for a closer look

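In 4 of the 64 groups of 5 arrays that the 32 members give, an end value stood off from the rest by more than Dixon's 95% limit for 5 samples, where chance alone flags about 1 in 20 groups. LKB1-deficient array 1 gave 3 of the 4. Umps was at 6.47 on it, where the next lowest array of the group was at 7.56 and the highest at 7.88. Tk1 was at 6.62 on it, with the other 4 arrays between 7.03 and 7.16. Phgdh was at 8.62 on it, with the other 4 between 6.74 and 7.17. The remaining value was that of Ppat on WT array 5, at 8.58, where the other WT arrays lay between 8.47 and 8.50.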

How the results depend on the processing

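Of the 32 measured members 6 were called lower and 0 higher with all arrays. The lower count was 10 without the dimmest 40% of genes, 10 with array medians subtracted, 10 with a trended robust prior, 12 with array quality weights and 13 at an adjusted p under 0.1. The share of all genes called lower moved with it, from 0.83% to 2.13%, 1.28%, 1.38%, 1.48% and 1.87% in these 5. It was 2 with a second quantile normalization, 1 with the replicate block (0.464% and 0.162% of all genes), and 0 within submission set 1 or 2 alone, and with each array left out it ranged from 1 to 13. It stayed within 1.5 times of 6 with the mean of all probe sets (5), with the set as a block (8), with the macrophage and B cell covariates (5) and with arrays 1, 4 and 5 of the LKB1-deficient group left out (6). In the same order, 0.803%, 0.857%, 0.753% and 0.915% of all genes were called lower. The last 2 of these fits lost Gart, Cad and Shmt2 and gained Atic and Psat1, and the last also gained Gmps. The count of members called higher was 0 throughout, and the median over the members lay between -0.44 and -0.34 in every fit run. The values showed no pairing by replicate number. Deviations of same-numbered arrays from their group means correlated at -0.08 to 0.10 over genes, and 1 of the 5 WT arrays correlated best with its own number. These correlations cannot tell whether arrays shared hosts, since LKB1-deficient arrays 1, 4 and 5 also deviated in markers of other cell types.

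The members whose sign turned had small estimates and did not pass in either direction. Prps1 was at -0.029 with array medians subtracted, -0.0088 within set 2 alone, and between -0.071 and 0.052 with each array left out. Impdh1 was at 0.0050 with a second quantile normalization, Tk1 at -0.067 within set 1 alone, and Umps at 0.23 and Rrm1 at 0.075 within set 2 alone. With each array left out, Umps lay between -0.33 and 0.021, the positive value being that without LKB1-deficient array 1. Dhodh was at 0.14 with the covariates and 0.13 when arrays 1, 4 and 5 were left out. The causes were not tested. The table has no detection calls, so what background limits cannot be given per gene.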
